A study of Homo sapiens with 6 samples.

Results

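Annexin mRNA was measured by RNA-seq in OVCAR-3 cells, an established line that resembles high-grade serous ovarian cancer, with and without knockdown of COX-1. The family was taken as 10 genes picked by symbol from the deposited count table (ANXA1 to ANXA9 and ANXA11), and all 10 were found among its 34811 genes. OV3/COX1KD cells carry a pRS HuSH-29 plasmid with an shRNA against COX-1 (gene PTGS1), and OV3/SCR control cells carry a scrambled shRNA in the same plasmid. Both are stable clones that had passed puromycin selection and grew in RPMI-1640 with 10% FBS. Each condition was 1 clone (OV3/COX1KD clone #2, OV3/SCR clone #1) assayed at 3 passages, so an effect of the shRNA and a difference between clones cannot be told apart, and p-values describe the spread between passages. The question was which annexin transcripts differed between COX-1 deficient and COX-1 proficient cells.

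Annexins are cytosolic proteins that bind acidic phospholipids, above all phosphatidylserine, when calcium rises. A conserved repeated core binds the membrane, and a variable N-terminal tail recruits partners, mostly small calcium-binding proteins of the S100 and EF-hand type. In epithelial and tumor cells they are known for membrane repair, vesicle traffic, surface plasmin formation and, through ANXA1, restraint of the phospholipase A2 that feeds arachidonic acid to COX enzymes.

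Each library held between 25291505 and 27391538 counts on genes, and 3 counts, taken as the smallest detectable level, equalled 0.112 to 0.120 CPM (counts scaled to library size with TMM factors). The floor covers counting error only, while the intervals of log2 fold changes include the spread between passages. PTGS1 itself fell to 73.3% of the control level (log2 fold change -0.45, edgeR FDR = 1.3e-06), with 456 to 501 counts against 641 to 713. A lower log2 fold change was found for 17.4% of tested genes. The authors picked this knockdown clone for its loss of COX-1 protein on Western blots, and protein is not measured by these libraries. Of 10 epithelial and serous markers, 9 had at least 2054 counts in every library. The exception was ESR1, with at most 2 counts in any library. The summed epithelial level was 4751 to 4780 CPM in OV3/SCR and 6075 to 6258 in OV3/COX1KD, with 6 markers higher and 3 lower (KRT7, PAX8 and WFDC2). At the same edgeR FDR, under 0.01, 25.8% of all tested genes were higher and 22.1% lower. KRT8 alone went from 1486 to 1522 CPM in OV3/SCR to 2322 to 2395 in OV3/COX1KD. The sums were 10.9 to 11.6 and 6.71 to 7.42 CPM for 6 fibroblast markers, 1.27 to 1.84 and 0.862 to 1.52 for 5 leukocyte markers and 2.45 to 3.22 and 2.87 to 3.56 for the 3 endothelial markers analysed. LUM and CDH5 stayed at or under 3 counts throughout. The fibroblast sum came mostly from COL1A1, with 258 to 270 counts in OV3/SCR and 143 to 160 in OV3/COX1KD, and its part in the annexin results was not tested.

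Annexin reads made up 0.335 to 0.346% of all counts in the OV3/SCR libraries and 0.252 to 0.257% in the OV3/COX1KD libraries. ANXA2 supplied 59.7 to 59.9% of these reads in OV3/SCR and 59.7 to 60.3% in OV3/COX1KD, so its share of the family was alike while the family total was lower. The share of ANXA1 was 14.7 to 15.1% and 14.3 to 14.6%. ANXA5, by contrast, dropped from 10.2 to 10.7% of annexin reads in OV3/SCR to 7.93 to 7.98% in OV3/COX1KD. In bulk RNA, fewer cells that express a gene and less RNA per cell cannot be told apart.

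**Figure D1:**
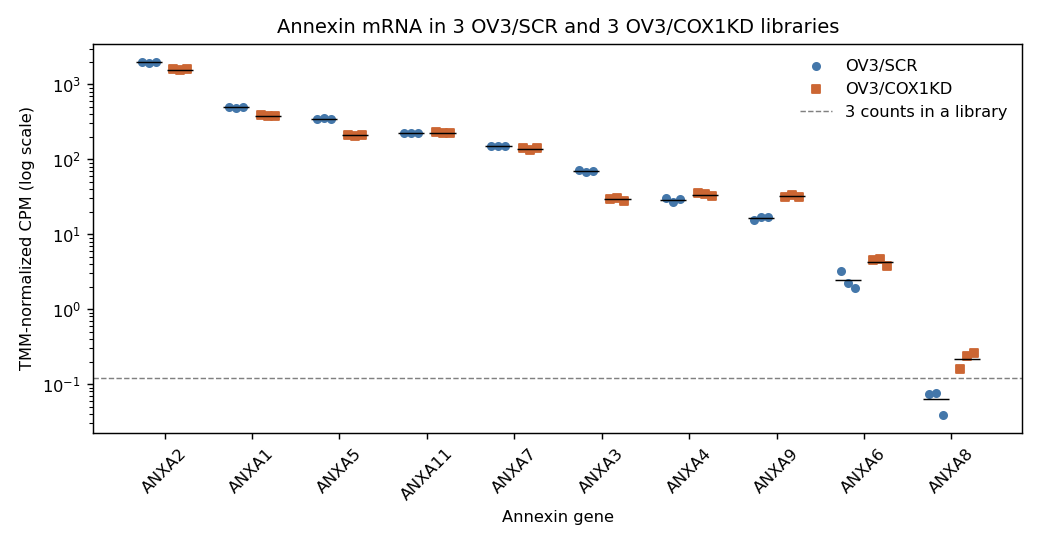
TMM-normalized CPM on a log axis for the 10 annexins, with 1 point per library, 3 OV3/SCR (circles) and 3 OV3/COX1KD (squares), and a short line at each mean. ANXA2 lies between 1541 and 2003 CPM, ANXA8 at or below 0.262 CPM, and among the 10 genes only the ANXA11 points of the conditions overlap.

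Of the 9 annexins that passed the filter on low counts, 5 fell (ANXA1, ANXA2, ANXA3, ANXA5 and ANXA7) and 3 rose (ANXA4, ANXA6 and ANXA9) in OV3/COX1KD at an edgeR FDR under 0.01. ANXA11 had no call and ANXA8 was too scarce to test. Over all 17309 tested genes 47.9% were called, 22.1% lower and 25.8% higher, so calls were common in this comparison. With total count scaling, 4978 genes were lower and 3466 higher, in place of 3820 and 4473, and the annexins were 5 lower and 2 higher. The conditions did not overlap for 8 of the 9 tested annexins and for 63.1% of all tested genes. The median log2 fold change was -0.13 over the 9 annexins and -0.0087 over all tested genes. Changes beyond 0.5 on the log2 scale at that FDR were found for 4 annexins (background 19.9%), 2 lower and 2 higher, against 10.0% and 9.87% of tested genes in those directions. No annexin passed a fold change of 2.5 by edgeR or DESeq2, a limit passed by 3.92% of tested genes. With total count scaling ANXA3 passed it.

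The largest fall was that of ANXA3 (ENSG00000138772, chromosome 4 of GRCh37 from 79472901 to 79531605), a protein best known from neutrophil granules, where it promotes membrane aggregation. Its counts were 1949, 1785 and 1787 in OV3/SCR and 748, 765 and 749 in OV3/COX1KD. These are 73.0, 68.4 and 69.0 CPM against 29.7, 30.5 and 28.1 CPM, so every knockdown library lay far below every control library. ANXA3 had a log2 fold change of -1.25 ± 0.0456 (SE, edgeR FDR = 1.4e-14), a 2.39-fold lower level, and only 2.65% of tested genes had a lower log2 fold change.

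ANXA5 (ENSG00000164111, chromosome 4 from 122589101 to 122618150) encodes the phosphatidylserine-binding annexin used as a probe of apoptotic cells. It had 9080, 9151 and 8947 counts in OV3/SCR libraries and 5300, 5170 and 5579 in OV3/COX1KD libraries. The level went from 345.5 ± 5.27 to 208.5 ± 2.22 CPM (SD, n = 3 each), 60.4% of the control. This was a log2 fold change of -0.73 ± 0.0287 (SE, edgeR FDR = 4.5e-14), with 8.62% of tested genes lower.

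ANXA1 (ENSG00000135046, chromosome 9 from 75766781 to 75785309) is the glucocorticoid-inducible annexin that inhibits phospholipase A2 and, once released, acts on formyl peptide receptors. It was counted 13491, 12586 and 12802 times in OV3/SCR and 9661, 9454 and 10067 times in OV3/COX1KD. Its level was 494 ± 11.6 against 379 ± 3.66 CPM (SD, n = 3 each), and the log2 fold change was -0.38 ± 0.0286 (SE, edgeR FDR = 7.4e-10). All knockdown libraries were below all control libraries, at 76.7% of the control level.

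ANXA2 (ENSG00000182718, chromosome 15 from 60639333 to 60695082), which forms a complex with S100A10 that binds plasminogen and its activator at the cell surface, was the most abundant annexin. The OV3/SCR libraries held 53483, 50928 and 51248 ANXA2 counts and the OV3/COX1KD libraries 40008, 38661 and 42330. The level was 1978 ± 26.0 CPM in control and 1572 ± 26.9 CPM in knockdown cells (SD, n = 3 each), 79.4% of the control, without overlap. The log2 fold change of -0.33 ± 0.0267 (SE, edgeR FDR = 2.1e-09) was smaller than those of ANXA3 and ANXA5, and the 95% intervals (-0.388 to -0.276 for ANXA2, -0.789 to -0.669 for ANXA5) did not meet. ANXA2 has processed pseudogenes that share much of its sequence. ANXA2P1 had 27 to 35 counts in OV3/SCR and 20 to 35 in OV3/COX1KD (edgeR FDR = 0.709), ANXA2P2 had 25 to 27 and 18 to 28 (edgeR FDR = 0.687), and ANXA2P3 had at most 5. How the counting treated reads shared with these copies is not given in the sources used here, and none of the copies held more than 35 counts in a library.

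ANXA7 (ENSG00000138279, chromosome 10 from 75134859 to 75173834), or synexin, named for its part in granule fusion, changed least among the genes called. It had 4028, 3920 and 3928 counts in control libraries and 3508, 3363 and 3741 in knockdown libraries. On the CPM scale these were 150.2 to 151.7 against 134 to 140.3, narrowly apart, for a change of -0.13 ± 0.0315 in log2 units (SE, edgeR FDR = 0.00137). The call was lost with DESeq2 (FDR = 0.0133), without the filter on low counts (FDR = 0.0129) and without OV3/SCR replicate 3 (FDR = 0.0130). Exons of an antisense lncRNA cover 3.67% of its exon length, and the strand setting of the counting is not given in the sources used here.

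Of the annexins that rose, ANXA9 (ENSG00000143412, chromosome 1 from 150954725 to 150968110) had the highest estimate. Its 95% interval (0.843 to 1.09) overlapped that of ANXA6, and without OV3/SCR replicate 1 ANXA6 was higher (1.05 against 0.92). ANXA9 encodes an atypical member whose core has lost the usual calcium-binding residues. Its counts were 410, 444 and 437 in OV3/SCR and 788, 836 and 841 in OV3/COX1KD, so each knockdown library had more than each control library. The level rose 1.95-fold, from 16.4 ± 0.920 to 32.0 ± 1.11 CPM (SD, n = 3 each). In log2 units this was 0.96 ± 0.0578 (SE, edgeR FDR = 2.6e-11), and 3.44% of tested genes had a higher log2 fold change.

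ANXA6 (ENSG00000197043, chromosome 5 from 150480267 to 150537376), the annexin with a duplicated core that acts in endosome and cholesterol traffic, was scarce in both clones. It had 86, 58 and 50 counts in OV3/SCR and 114, 116 and 101 in OV3/COX1KD. The level was 2.46 ± 0.677 CPM in control and 4.31 ± 0.457 CPM in knockdown cells (SD, n = 3 each), a 1.75-fold rise with a log2 fold change of 0.80 ± 0.166 (SE, edgeR FDR = 0.00036). OV3/SCR replicate 1, at 3.22 CPM, was the highest control and still below the lowest knockdown library at 3.79 CPM. Its 95% interval, 0.455 to 1.15, was the widest among the 9 tested annexins.

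ANXA4 (ENSG00000196975, chromosome 2 from 69871557 to 70054244), an annexin of secretory epithelia that is known for a high level in clear cell ovarian carcinoma, had 801, 706 and 766 counts in OV3/SCR and 885, 855 and 864 in OV3/COX1KD. In CPM these were 30.0, 27.1 and 29.6 against 35.1, 34.1 and 32.4. The groups lay close but apart, with a log2 fold change of 0.23 ± 0.0534 (SE, edgeR FDR = 0.00111). This call was lost with total count scaling (log2 fold change 0.15, FDR = 0.0214) and without OV3/SCR replicate 2 (log2 fold change 0.19, FDR = 0.0123).

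ANXA11 (ENSG00000122359, chromosome 10 from 81910645 to 81965328), which tethers RNA granules to lysosomes, showed 223.2 ± 1.21 CPM in OV3/SCR and 225.3 ± 5.30 CPM in OV3/COX1KD (SD, n = 3 each). Counts were 5967, 5791 and 5806 against 5821, 5535 and 5980, and the libraries overlapped. The log2 fold change was 0.013 (edgeR FDR = 0.733) with a 95% interval from -0.0494 to 0.0748, and its sign turned with total count scaling (-0.065).

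ANXA8 (ENSG00000165390), an epithelial annexin of late endosomes, had 2, 2 and 1 counts in OV3/SCR and 4, 6 and 7 in OV3/COX1KD. The control libraries were all under 3 counts and the knockdown libraries just above. The summed counts of 5 and 17 gave a ratio of 3.48 with an exact interval, for counting error only, from 1.23 to 12.1, and a fit that kept all genes gave an FDR of 0.0669 by edgeR. ANXA8L1 and ANXA8L2, near-identical copies, had at most 3 counts, so reads could be split or lost between the copies and the level of ANXA8 is uncertain. Its identifier had no entry in the annotation used here, so no position or length is given. Of the other family genes, ANXA10 had at most 1 count and ANXA13 between 3 and 8.

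**Figure D2:**
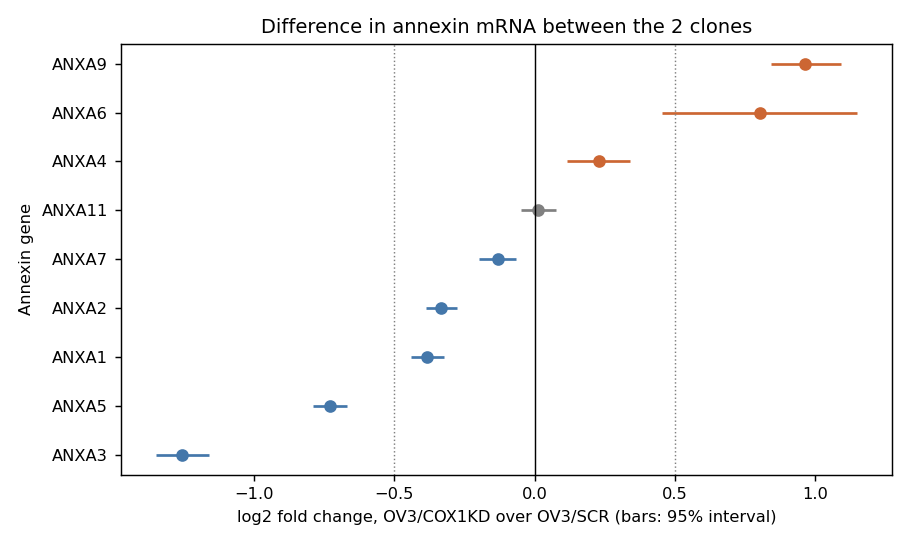
The log2 fold change of OV3/COX1KD over OV3/SCR for the 9 tested annexins with 95% intervals from the edgeR fit, in blue for lower, orange for higher and grey for no call at an FDR under 0.01. Dotted lines mark a log2 fold change of 0.5 in each direction, which the intervals of ANXA3, ANXA5 and ANXA9 clear and that of ANXA6 spans.

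Levels of different annexins were compared per kilobase of exon (CPM divided by the joined exon length of GENCODE 44 on GRCh37), which 9 members allowed. In OV3/SCR the order was ANXA2 (171 ± 2.25 CPM per kb, SD, n = 3), ANXA5 (118 ± 1.80), ANXA1 (110.9 ± 2.59), ANXA7 (52.7 ± 0.267), ANXA11 (26.2 ± 0.142), ANXA3 (14.3 ± 0.511), ANXA9 (10.3 ± 0.577), ANXA4 (2.61 ± 0.145) and ANXA6 (0.446 ± 0.123). No neighbours in this order overlapped between libraries. In OV3/COX1KD, ANXA1 (85.2 ± 0.823 CPM per kb) stood above ANXA5 (71.3 ± 0.758), and ANXA9 (20.1 ± 0.699) above ANXA3 (6.01 ± 0.251). The other places were the same. With mean transcript length in place of joined exons, 5 of 9 members kept their rank in OV3/SCR. ANXA1 was then above ANXA5 in both conditions and ANXA4 above ANXA9 in OV3/SCR, while ANXA9 was above ANXA3 in OV3/COX1KD only, as before.

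The promoters of 4 annexins that fell and of ANXA9, which rose, are shown to let their sequences be compared. RefSeq starts on GRCh38.p14 were found for 9 of the 10 members, with 13 starts in all, and the 250 bases before each start were searched on both strands for the TATA box (letters TATAAA), the CCAAT box (letters CCAAT), the Sp1 motif (letters GGGCGG), the AP-1 motif (letters TGANTCA) and the cAMP response motif (letters TGACGTCA). The sequences of the 4 largest falls (ANXA3, ANXA5, ANXA1 and ANXA2) and of ANXA9 follow with matches in capitals.
ANXA3, chr4:78551520-78551769, plus strand: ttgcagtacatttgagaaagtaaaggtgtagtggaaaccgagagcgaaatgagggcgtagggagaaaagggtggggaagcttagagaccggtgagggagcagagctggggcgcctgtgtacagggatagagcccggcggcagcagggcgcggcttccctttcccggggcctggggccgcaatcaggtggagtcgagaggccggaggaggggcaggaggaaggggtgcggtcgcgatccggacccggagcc
ANXA5, chr4:121696981-121697230, minus strand: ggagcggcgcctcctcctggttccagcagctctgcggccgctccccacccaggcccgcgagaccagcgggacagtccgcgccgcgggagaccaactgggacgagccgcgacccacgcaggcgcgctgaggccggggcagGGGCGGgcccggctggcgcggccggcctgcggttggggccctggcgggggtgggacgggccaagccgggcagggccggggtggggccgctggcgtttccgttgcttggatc
ANXA1, chr9:73151615-73151864, plus strand: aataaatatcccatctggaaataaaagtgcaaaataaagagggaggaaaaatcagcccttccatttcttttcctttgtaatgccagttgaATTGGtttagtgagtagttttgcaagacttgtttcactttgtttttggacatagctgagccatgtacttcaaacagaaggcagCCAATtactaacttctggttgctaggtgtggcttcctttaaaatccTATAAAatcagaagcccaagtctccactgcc
ANXA2, chr15:60397987-60398236, minus strand: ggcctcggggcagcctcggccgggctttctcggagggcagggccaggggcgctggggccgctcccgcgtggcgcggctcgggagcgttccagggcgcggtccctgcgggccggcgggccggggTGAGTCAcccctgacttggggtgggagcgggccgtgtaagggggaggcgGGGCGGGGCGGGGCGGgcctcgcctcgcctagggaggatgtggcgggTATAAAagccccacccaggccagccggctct
ANXA9, chr1:150982042-150982291, plus strand: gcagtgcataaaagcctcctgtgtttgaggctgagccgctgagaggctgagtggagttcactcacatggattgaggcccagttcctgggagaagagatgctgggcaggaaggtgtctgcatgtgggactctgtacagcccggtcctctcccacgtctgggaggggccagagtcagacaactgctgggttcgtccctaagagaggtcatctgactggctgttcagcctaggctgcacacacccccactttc

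The ANXA1 stretch held 1 TATA box and 2 CCAAT boxes, the latter once on each strand, and 38.4% of its bases were G or C. That of ANXA2 held a TATA box, an AP-1 motif and 3 overlapping Sp1 motifs, with 78.0% G or C. ANXA5 had a single Sp1 motif and 78.8% G or C, and ANXA3, at 64.0%, and ANXA9, at 58.0%, held none of the 5 motifs. Of 35116 RefSeq starts, 10.7% had a TATA box, 32.0% a CCAAT box, 42.6% an Sp1 motif, 6.57% an AP-1 motif and 1.65% a cAMP response motif in such a stretch, and the median share of G or C was 58.0%. The cAMP response motif was in none of the 13 annexin stretches. Those of ANXA4 held 5 and 3 Sp1 motifs at its 2 starts, and that of ANXA7 held 3 and a CCAAT box. ANXA11, which had no call, had a TATA box at 1 start, 3 Sp1 motifs at another and a CCAAT box at the last. For ANXA6, which rose, 1 start had a CCAAT box and an Sp1 motif and the other had none of the 5 motifs. A match describes letters only.

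Partners and receptors of annexins were taken from a list of 14 genes, of which 12 were analysed and 9 tested. Of these 9, 5 fell, 1 rose and 3 had no call, against 22.1% lower and 25.8% higher over all tested genes. Their median log2 fold change was -0.42. S100A10, S100A11, S100A6 and S100A4, which all fell, lie on chromosome 1 of GRCh37 between 151955391 and 153522612. The 5 falls are therefore not all from separate places in the genome, and whether position played a part was not tested. S100A10, the light chain bound by ANXA2, had 11438, 11557 and 11690 counts in OV3/SCR and 6494, 6937 and 7122 in OV3/COX1KD. Its log2 fold change of -0.72 ± 0.0322 (SE, edgeR FDR = 2.6e-13) had a 95% interval from -0.791 to -0.656, below that of ANXA2. There were 21.4, 22.7 and 22.8 S100A10 reads per 100 ANXA2 reads in control and 16.2, 17.9 and 16.8 in knockdown libraries, so the knockdown libraries all had fewer.

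S100A11, the partner of ANXA1, fell from 134.6 ± 0.942 to 93.8 ± 3.00 CPM (SD, n = 3 each), a log2 fold change of -0.52 (edgeR FDR = 8.3e-11). S100A6, which binds ANXA11 and ANXA2, fell from 93.0 ± 0.283 to 49.8 ± 0.125 CPM (log2 fold change -0.90, edgeR FDR = 4.5e-14), although ANXA11 had no call. S100A4, a further ligand of ANXA2, went from 31.1 ± 1.84 to 23.2 ± 0.997 CPM (log2 fold change -0.42, edgeR FDR = 2.8e-06). SRI (sorcin), a calcium-binding partner of ANXA7 and ANXA11, was at 102.9 to 106.6 CPM in OV3/SCR and 69.7 to 77.2 CPM in OV3/COX1KD (log2 fold change -0.52, edgeR FDR = 8.6e-10). For these S100 genes and SRI the knockdown libraries lay below the control libraries without overlap. The conditions also did not overlap for 63.1% of all tested genes.

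PDCD6, the other EF-hand partner of ANXA7 and ANXA11, had 1859 to 1945 counts in OV3/SCR and 1700 to 1859 in OV3/COX1KD, with a log2 fold change of -0.063 (edgeR FDR = 0.146) and a call with total count scaling (-0.14, FDR = 0.00283). AHNAK, a scaffold of the complex of ANXA2 with S100A10, had 42728 to 44158 counts in control libraries and 41774, 31915 and 44795 in knockdown libraries. OV3/COX1KD replicate 2 was low, and the AHNAK log2 fold change was -0.11 (edgeR FDR = 0.168) with it and 0.019 without it. PLAT, the plasminogen activator that the same complex binds, was at 23.1 ± 0.139 and 21.8 ± 0.559 CPM (SD, n = 3 each, edgeR FDR = 0.199). On the CPM scale PDCD6 (71.2 to 72.9 in OV3/SCR, 67.5 to 70.2 in OV3/COX1KD) and PLAT did not overlap between conditions either. ANXA2R, a receptor-like gene named after ANXA2, had 17, 16 and 22 counts against 29, 30 and 34. Its log2 fold change was 0.78 (edgeR FDR = 0.00989), and the call was lost in 9 of 12 alternatives (lowest FDR 0.00641, highest 0.0740). The formyl peptide receptor genes FPR1 and FPR2 had at most 5 counts, and PLG, encoding plasminogen, had 4 to 11. A difference in these was not detectable at this depth. FPR3 and PLA2G4A were not found under these symbols in the deposited count table, so they were not analysed here.

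Membrane repair genes, 14 in the list, were tested in 11 cases, and 6 rose and 5 fell (3 rose with total count scaling), against 25.8% higher and 22.1% lower over all tested genes. The caveolar genes fell most. PTRF, the cavin that coats caveolae, had 456, 443 and 416 counts in OV3/SCR and 36, 39 and 36 in OV3/COX1KD, an 11.6-fold fall (log2 fold change -3.53 ± 0.107, SE, edgeR FDR = 9.2e-16). CAV1, the main caveolin, went from 43.3 ± 0.213 to 13.9 ± 0.645 CPM (SD, n = 3 each, log2 fold change -1.64, edgeR FDR = 2.6e-15). SMPD1, the acid sphingomyelinase released at wounds, fell by 0.27 on the log2 scale (edgeR FDR = 0.00015), and CAPN2, a calpain, fell by 0.18 (edgeR FDR = 0.00015). DYSF (dysferlin), a calcium sensor of repair that binds ANXA1 and ANXA2, had 503, 516 and 491 counts in control and 915, 820 and 928 in knockdown libraries, a 1.80-fold rise (log2 fold change 0.85 ± 0.0553, SE, edgeR FDR = 9.2e-11). CAPN1, the other main calpain, rose by 0.27 on the log2 scale (edgeR FDR = 1.9e-07), PDCD6IP (ALIX) by 0.19 (edgeR FDR = 4.2e-05) and CHMP4B, an ESCRT-III subunit, by 0.18 (edgeR FDR = 0.00043). With total count scaling the CHMP4B call was lost (0.11, FDR = 0.0242). The median of the list was 0.14 in log2 fold change.

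Genes of phosphatidylserine exposure and recognition, the lipid that ANXA5 binds, were all tested. Of 13, 4 rose, 2 fell and 7 had no call, with a median log2 fold change of 0.035. Over all tested genes 47.9% were called. GAS6, a bridging ligand between phosphatidylserine and TAM receptors, had 113, 108 and 102 counts in OV3/SCR and 403, 492 and 469 in OV3/COX1KD, a 4.31-fold rise (log2 fold change 2.11 ± 0.0955, SE, edgeR FDR = 3.6e-13). PLSCR4, a phospholipid scramblase family gene, rose 2.10-fold (edgeR FDR = 2.5e-10). MERTK, a TAM receptor, had a log2 fold change of 0.42 (edgeR FDR = 0.00027), and TMEM30A, the flippase chaperone, of 0.34 (edgeR FDR = 7.5e-09). PLSCR1 fell by 0.29 on the log2 scale (edgeR FDR = 2.6e-07). AXL, another TAM receptor, had 28, 45 and 26 counts against 15, 16 and 15 (log2 fold change -1.07, edgeR FDR = 0.00287), and without OV3/SCR replicate 2 its FDR was 0.0312.

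**Figure D3:**
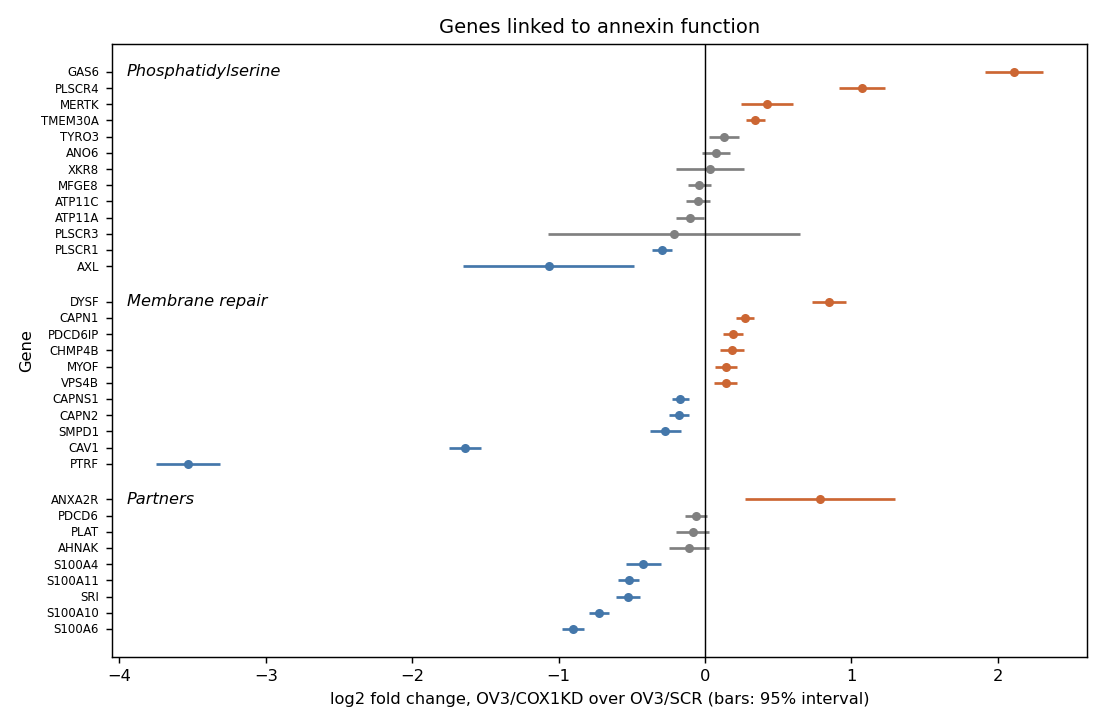
The log2 fold change of OV3/COX1KD over OV3/SCR with 95% intervals for the tested genes of the partner, membrane repair and phosphatidylserine lists, in blue for lower, orange for higher and grey for no call at an edgeR FDR under 0.01. PTRF, at -3.53, and GAS6, at 2.11, lie at the ends, and the S100 partners and SRI lie between -0.90 and -0.42.

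To see whether the annexin changes followed their chromosomal surroundings, each was set beside the 10 nearest tested genes on each side. Over all tested genes 25.8% were called higher and 22.1% lower. These neighbourhoods differed in size, from 0.616 Mb around ANXA7 to 6.46 Mb around ANXA1. The 20 neighbours of ANXA3 had a median log2 fold change of 0.22, with 9 higher and 0 lower by edgeR, while ANXA3 itself fell. Those of ANXA5, also on chromosome 4, had a median of 0.14, with 8 higher and 3 lower. Around ANXA9 the median was 0.047 (6 higher, 3 lower), and around ANXA6 it was -0.0084 (6 higher, 5 lower). The neighbours of ANXA1 and ANXA2 had medians of -0.19 (3 higher, 7 lower) and -0.17 (4 higher, 7 lower). Around ANXA7 the median was -0.24 although 4 neighbours were called higher and 2 lower. Around ANXA11 it was 0.20 (5 higher, 5 lower) and around ANXA4 0.0016 (6 higher, 3 lower).

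**Figure D4:**
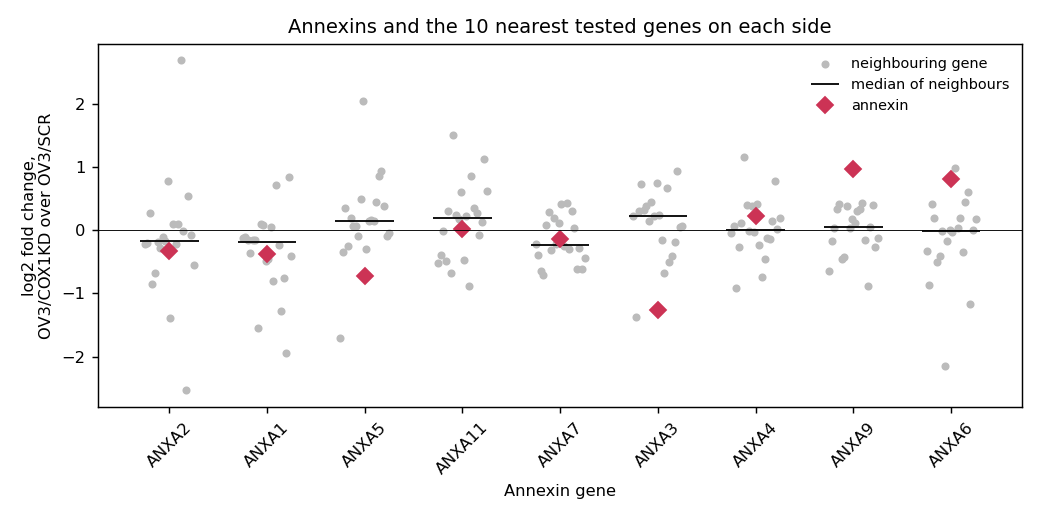
The log2 fold change of OV3/COX1KD over OV3/SCR for 9 annexins (diamonds), their 20 nearest tested genes (grey points, spread sideways so that they can be seen) and the median of those genes (lines). ANXA3 at -1.25 and ANXA5 at -0.73 lie below the medians of their neighbours, 0.22 and 0.14, and below all but 1 neighbour each, and ANXA9 at 0.96 lies above all 20 of its neighbours.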

How the data were processed

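Libraries from 3 passages of OV3/SCR and 3 of OV3/COX1KD were grouped by the labels. The deposited values are raw HTSeq counts per gene, which the authors made from TopHat2 alignments to hg19 and did not normalize. The annotation and strand setting of that counting are not given in the sources used here.

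Differences were tested in edgeR 4.0.16 (R 4.3.3) by glmQLFit and glmQLFTest with TMM scaling and condition as the only factor. filterByExpr kept 17309 genes, over which p-values were adjusted by Benjamini-Hochberg, and a call needed an FDR under 0.01. SEs were obtained from the F statistic (log2 fold change over its root), and intervals are at 95%. Totals of 25291505 to 27391538 counts put 3 counts at 0.112 to 0.120 CPM. Replicates of a condition differed by more than sampling noise (chi-square per degree of freedom 1.82 to 6.40). The fit was also run on simulated counts. Far fewer genes were changed in them than were called here, so they do not test error rates in these data.

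The members and lists were chosen with earlier results of these data known. Genes named with values are the members, PTGS1, partners and relatives, and up to 4 called genes per direction in the repair and phosphatidylserine lists. ESR1, LUM, CDH5, COL1A1, KRT7, KRT8, PAX8 and WFDC2 were named after their values were seen. GENCODE 44 on GRCh37 had an entry for 33556 of 34811 genes. Alternatives were RLE and total count scaling, keeping all genes, a minimum of 10 counts per library, DESeq2 1.42.0, a replicate block and leaving out each library.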

Additional observations from a re-analysis of the deposited data

How the results depend on the processing

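The log2 fold changes and counts of calls were recomputed in 12 alternatives of the fit, and the order per kilobase with 1 other length. Family shares, marker sums and neighbour medians were not recomputed. PTGS1, ANXA1, ANXA2, ANXA3, ANXA5, ANXA6 and ANXA9 kept their direction and their call in all 12. Leaving out a library gave ANXA3 -1.27 to -1.22, ANXA5 -0.74 to -0.71, ANXA9 0.92 to 0.99 and ANXA6 0.66 to 1.05 on the log2 scale. ANXA11 turned sign with total count scaling (-0.0653), with at least 10 counts in every library (-0.00444) and without OV3/COX1KD replicate 1 (-0.00418, with 0.0341 the highest value when a library was left out). Without OV3/COX1KD replicate 2 the sign of ANXA2P1 (0.0757), ANXA2P2 (0.0231) and AHNAK (0.0188) turned, against lowest values of -0.305, -0.287 and -0.174 without another library. None of these genes was called in the main or the altered fit. The cause was not tested. CHMP4B lost its call with total count scaling (0.106, FDR = 0.0242) and AXL with DESeq2 (-1.06, FDR = 0.0212) and without OV3/COX1KD replicate 3 (-1.02, FDR = 0.0133). With total count scaling, 3 repair genes rose, 0 partners rose and 1 annexin passed a fold change of 2.5, a count chosen after seeing the data. Partners that rose numbered 0 with RLE size factors and DESeq2, and 0 to 1 when a library was left out. Phosphatidylserine genes that fell numbered 1 with DESeq2 and 1 to 2 when a library was left out. With mean transcript length, 5 of 9 annexins kept their rank per kilobase.

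With the replicate block, PTGS1 and all called annexins kept their calls, and partners that rose numbered 0, since ANXA2R had an FDR of 0.0139. The labels speak of replicate pairs without tying a number to a pair, and same-numbered libraries deviated together with correlations of 0.00447, 0.0424 and 0.00896 across genes, against -0.0266 to 0.0181 for different numbers. Replicate number 2 lay above that range. The block was kept as an alternative because the labels tie no number to a pair. Depth limited ANXA8, FPR1, FPR2 and PLG, and 1 clone per condition limits all comparisons.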
